A study of Mus musculus with 16 samples.

Results

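The 8 genes described here encode transcription factors that mark or shape the lineages of CD4+ helper T cells: *Gata3*, *Rora*, *Maf*, *Tbx21*, *Eomes*, *Foxp3*, *Prdm1* and *Zbtb16*. They were taken by symbol from 31053 genes in the matrices of lung and MLN and from 32285 genes in the matrix of medLN and MLN, and every one was present in both. On GRCm38 with GENCODE vM21, *Gata3* (ENSMUSG00000015619) lies at chr2:9857078-9890034 on the minus strand, *Tbx21* (ENSMUSG00000001444) at chr11:97098071-97115331 on the minus strand, *Rora* (ENSMUSG00000032238) at chr9:68653786-69388246 on the plus strand and *Foxp3* (ENSMUSG00000039521) at chrX:7573644-7595245 on the plus strand. *Prdm1* (ENSMUSG00000038151) lies at chr10:44437177-44528501, *Maf* (ENSMUSG00000055435) at chr8:115682942-115707794 and *Zbtb16* (ENSMUSG00000066687) at chr9:48654297-48836222, all on the minus strand, and *Eomes* (ENSMUSG00000032446) at chr9:118478212-118486132 on the plus strand. All samples came from IL-4eGFP reporter mice (strain 4get/C57BL/6), in which cells that have opened the *Il4* locus make eGFP, 10 days after subcutaneous infection with L3 larvae of the nematode *Nippostrongylus brasiliensis*. In a first experiment, CD4+IL-4eGFP+ cells were sorted from lung and mesenteric lymph node (MLN) of 2 mice aged 13 weeks, which gave the samples lung 1, lung 2, MLN 1 and MLN 2. In a second experiment, the mediastinal lymph node (medLN), which drains the lung, and the MLN of 2 other mice aged 10 weeks were labelled with hashtag antibodies and split by sorting into 2 libraries, IL-4eGFP+ and IL-4eGFP-, so that each gate held 4 samples (medLN 1, medLN 2, MLN 1 and MLN 2). Gate and library cannot be told apart in this experiment. All mice were infected and none of the samples came from an uninfected animal. The lungs had been perfused, but some cells from inside the vessels remained. Lung tissue was also digested with enzymes and its cells purified on Percoll, while lymph nodes were mashed without these steps. Organ and tissue processing thus cannot be told apart between lung and MLN.

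GATA3 is the factor that directs naive CD4+ cells to the Th2 fate and keeps *Il4*, *Il5* and *Il13* open. ROR alpha, encoded by *Rora*, is needed for group 2 innate lymphoid cells and is also made by helper and regulatory T cells in tissues. c-Maf, encoded by *Maf*, drives *Il4* and *Il21* transcription and is abundant in Th2 and follicular helper T cells. T-bet, encoded by *Tbx21*, is the Th1 counterpart of GATA3, and its relative Eomes acts in cytotoxic and memory cells. Foxp3 defines regulatory T cells (Treg). Blimp-1, encoded by *Prdm1*, promotes terminal differentiation and represses *Bcl6* and *Tcf7*. PLZF, encoded by *Zbtb16*, gives invariant NKT cells their innate-like state.

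The promoters of the 4 genes that were higher in lung than in MLN, and of *Foxp3*, are shown here. Among the genes with a window, *Foxp3* alone carried the spellings searched for the GATA and ROR motifs. RefSeq windows of 300 bases on GRCm38.p6, from 250 bases before to 50 after a start, were found for 6 of the 8 genes, with 2 windows for *Foxp3*, and each is written 5′ to 3′ on the strand of the gene with motif letters in capitals.
Gata3 (chr2:9878551-9878850, minus strand): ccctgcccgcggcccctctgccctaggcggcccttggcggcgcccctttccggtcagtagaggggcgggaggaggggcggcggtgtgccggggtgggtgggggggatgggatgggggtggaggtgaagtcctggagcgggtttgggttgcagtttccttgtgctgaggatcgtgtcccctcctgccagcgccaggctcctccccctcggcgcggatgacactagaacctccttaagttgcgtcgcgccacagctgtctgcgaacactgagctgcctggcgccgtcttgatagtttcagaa
Rora (chr9:68653536-68653835, plus strand): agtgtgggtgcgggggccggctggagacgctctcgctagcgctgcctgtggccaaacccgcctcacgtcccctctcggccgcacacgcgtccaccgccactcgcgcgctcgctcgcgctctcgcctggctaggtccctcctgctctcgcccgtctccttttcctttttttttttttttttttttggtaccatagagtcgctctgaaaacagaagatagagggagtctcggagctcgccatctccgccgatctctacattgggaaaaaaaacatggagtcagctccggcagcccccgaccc
Prdm1 (chr10:44458699-44458998, minus strand): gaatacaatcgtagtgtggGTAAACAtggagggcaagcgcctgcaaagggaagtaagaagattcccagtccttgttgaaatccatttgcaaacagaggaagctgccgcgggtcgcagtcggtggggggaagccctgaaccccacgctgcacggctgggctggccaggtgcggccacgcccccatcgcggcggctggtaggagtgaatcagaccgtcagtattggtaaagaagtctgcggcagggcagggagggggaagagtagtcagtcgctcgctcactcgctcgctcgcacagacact
Tbx21 (chr11:97115282-97115581, minus strand): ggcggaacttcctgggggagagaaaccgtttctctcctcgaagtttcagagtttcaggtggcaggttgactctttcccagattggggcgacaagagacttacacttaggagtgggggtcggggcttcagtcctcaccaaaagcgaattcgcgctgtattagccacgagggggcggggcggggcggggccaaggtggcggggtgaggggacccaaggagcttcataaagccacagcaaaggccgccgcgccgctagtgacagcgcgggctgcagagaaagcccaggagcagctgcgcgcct
Foxp3 (chrX:7579426-7579725, plus strand): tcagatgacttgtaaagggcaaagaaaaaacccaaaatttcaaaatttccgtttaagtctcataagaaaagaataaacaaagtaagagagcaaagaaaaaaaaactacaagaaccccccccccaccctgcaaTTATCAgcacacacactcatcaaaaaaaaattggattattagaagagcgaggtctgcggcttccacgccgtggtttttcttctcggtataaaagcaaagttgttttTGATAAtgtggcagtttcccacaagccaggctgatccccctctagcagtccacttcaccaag
Foxp3 (chrX:7580233-7580532, plus strand): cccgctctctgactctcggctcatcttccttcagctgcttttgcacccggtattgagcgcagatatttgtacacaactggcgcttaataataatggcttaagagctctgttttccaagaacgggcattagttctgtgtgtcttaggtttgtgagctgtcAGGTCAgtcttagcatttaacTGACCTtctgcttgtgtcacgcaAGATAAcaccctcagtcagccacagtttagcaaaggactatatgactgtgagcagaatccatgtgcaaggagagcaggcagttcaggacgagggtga
Short motifs were searched on both strands. The motif of the GATA factors was spelled AGATAA, with the spelling TGATAA counted as well. The T-box motif was TCACACC, the motif of ROR proteins was AGGTCA, the motif of MAF proteins was TGCTGAC and the forkhead motif was GTAAACA. The GATA letters were in 18.6% of all 32851 promoter windows and, among these genes, only in both *Foxp3* windows. The ROR letters were in 16.3% of all windows and, among these genes, in the second window of *Foxp3* on each strand. The forkhead letters, held by 3.65% of all windows, began at base 20 of the *Prdm1* window. The windows of *Gata3*, *Rora*, *Tbx21* and *Eomes* held none of the spellings searched. The letters TGATAG in the *Gata3* window and AGATAG in the *Rora* window differ from the GATA spellings in the last base and were not counted. The T-box (3.98% of all windows) and MAF letters (4.67%) were in no window of these genes. The G and C content was 67.3% for *Gata3*, 62.0% for *Tbx21*, 60.3% for *Rora* and 59.7% for *Prdm1*, against 47.3% for *Eomes* and 40.7% and 47.7% for the *Foxp3* windows.

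After filtering, 21462 of 26002 cell barcodes were used, between 416 (lung 2) and 2462 (MLN 1) per sample, with 2798232 to 14512767 UMIs per sample. Median UMIs per cell were 6910 and 5765.5 in lung, 4980 and 4971 in MLN and 3165.5 to 3666.5 in the 8 node samples, so shares of cells with a UMI are also given after thinning each cell to 1000 UMIs. *Cd3e* was found in 94.9% to 99.9% and *Cd4* in 45.1% to 78.4% of cells, while *Cd8a* was in at most 0.251% and the lung epithelial gene *Sftpc* was at 0 in every sample. A UMI of *Cd8a* or of the other CD8 gene, *Cd8b1*, was in 2.84% (MLN 2 IL-4eGFP+) to 7.61% (medLN 1 IL-4eGFP-) of cells. *Il4* was at 153 to 187 CPM (UMIs of the gene per 1000000 UMIs of the sample) in the IL-4eGFP+ node samples and at 0 to 0.398 in the IL-4eGFP- samples. The node libraries shared 155 barcodes (1.61% of the smaller library), and any 2 libraries of the first experiment shared 0 to 10. As a background for free RNA, 65 barcodes with B cell genes and no *Cd3* UMI were examined. They were spread unevenly, with 32 and 18 in the IL-4eGFP+ and IL-4eGFP- node libraries, 10 and 4 in MLN 1 and MLN 2, and 0 and 1 in lung 1 and lung 2. Free RNA in the lung samples was thus not measured by them. *Prdm1* and *Maf* each had a UMI in 1 of the 65 (1.54%), for *Maf* 1 of the 10 of MLN 1. The other 6 genes had a UMI in 0 of 65, for which the exact 95% interval reaches 5.52%, over the pooled libraries only.

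In IL-4eGFP+ cells, *Gata3* and *Rora* were several-fold higher in lung than in MLN, *Prdm1* and *Tbx21* were higher at low levels, and *Maf* overlapped between the organs. *Gata3* was at 832 CPM in lung 1 and 774 in lung 2, against 210 in MLN 1 and 223 in MLN 2. The lung and MLN samples were far apart, and those of each organ lay close together. The mean was 3.71 times higher in lung (803 ± 40.4 against 216 ± 9.43 CPM, SD, n = 2 each), at a log2 fold change of 2.03 ± 0.134 (SE, edgeR adjusted p = 5.5e-06). *Gata3* was found in 91.3% and 92.8% of lung cells and 49.96% and 53.7% of MLN cells, or in 54.4% and 54.8% against 16.4% and 18.3% at 1000 UMIs. A *Gata3*-positive cell held 7.16 and 5.61 UMIs in lung but 2.47 and 2.46 in MLN. So both the share of positive cells and the transcripts per positive cell were higher in the lung samples. The transcripts per positive cell were counted before thinning, and lung cells were deeper (median UMIs 6910 and 5765.5 against 4980 and 4971). The part of depth in that difference was not tested.

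*Rora* was at 199 CPM in lung 1 and 176 in lung 2, against 18.9 in MLN 1 and 25.7 in MLN 2. None of the other 5 members tested had a larger fold difference between these organs. The mean was 8.40 times higher in lung, at a log2 fold change of 3.26 ± 0.173 (SE, edgeR adjusted p = 1.8e-06), and *Rora* was found in 54.8% and 47.1% of lung cells against 7.88% and 9.68% of MLN cells. Markers of group 2 innate lymphoid cells, which also make *Gata3* and *Rora*, had a summed level of 96.4 and 99.7 CPM in lung and 59.1 and 74.1 CPM in MLN, with all 6 of 6 genes detected in each sample. All cells of these 4 samples had been required to carry a TCR alpha and a beta chain. Among the markers, *Il17rb* (18.1 and 18.2 CPM in lung, 27.6 and 40.2 in MLN) and *Hpgds* (14.2 and 16.1, 20.2 and 18.1) are also in the Th2 program list used below. The sum is thus not particular to innate lymphoid cells, and the part of such cells in the difference was not tested.

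*Maf* was at 272 and 288 CPM in lung and at 268 and 331 CPM in MLN. These values overlapped, and the log2 difference was 0.04 ± 0.129 (SE, edgeR adjusted p = 0.865). Markers of myeloid cells, some of which also make *Maf*, summed to 9.40 and 12.9 CPM in lung and 30.0 and 50.7 CPM in MLN, with *Lyz2*, *C1qa* and *C1qb* at 0 in both lung samples. Any of these 8 markers was found in 1.92% to 7.82% of the cells of these 4 samples, and *Maf* in 61.6% to 71.1%. Among the markers, *Fcer1g* (2.35 and 4.29 CPM in lung, 2.96 and 6.48 in MLN) and *Tyrobp* (4.47 and 6.43, 2.89 and 9.38) are also in the innate-like list used below. The sum is thus not particular to myeloid cells, and their part in the *Maf* level was not tested.

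*Prdm1* was at 15.0 CPM in lung 1 and 13.9 in lung 2, against 3.03 in MLN 1 and 4.02 in MLN 2, and was found in 9.52%, 8.17%, 1.42% and 2.12% of cells. The lung samples were above both MLN samples, at a log2 fold change of 2.27 ± 0.256 (SE, edgeR adjusted p = 1.7e-04). *Tbx21* was at 6.94 and 22.9 CPM in the lung samples and at 2.20 and 4.91 CPM in those of MLN, resting on 59, 64, 32 and 22 UMIs. Here the lung samples differed more from each other than lung 1 did from MLN 2. The log2 fold change was 2.20 ± 0.540 (SE, edgeR adjusted p = 0.0131), and without lung 2 it was 1.33 (edgeR adjusted p = 0.0344), where lung 1 is then assumed to vary like the MLN samples. In the fit across all genes, 31.0% of 10588 genes passed the threshold and 17.0% were higher in lung, and 4 of the 6 genes tested were among the latter. The samples of the organs did not overlap for these 4, as for 68.7% of all genes tested.

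*Zbtb16* gave 8 and 32 UMIs in the lung samples and 93 and 34 in those of MLN, or 0.940, 11.4, 6.41 and 7.59 CPM. Lung 1 was lowest and lung 2 highest, and the difference between organs fell short of the threshold (log2 difference -0.51 ± 0.728, edgeR adjusted p = 0.632). Without lung 2 the value was -2.65 (edgeR adjusted p = 8.4e-04) and without lung 1 it was 0.79 (edgeR adjusted p = 0.0912), with the lone lung sample, of 8 or 32 UMIs, assumed to vary like the MLN samples. *Foxp3* (13, 7, 11 and 4 UMIs) and *Eomes* (3, 1, 10 and 0 UMIs, in the order lung 1, lung 2, MLN 1, MLN 2) were too rare to be tested in these sorted cells. *Foxp3* was found in at most 0.721% of the cells of these 4 samples.

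**Figure D1:**
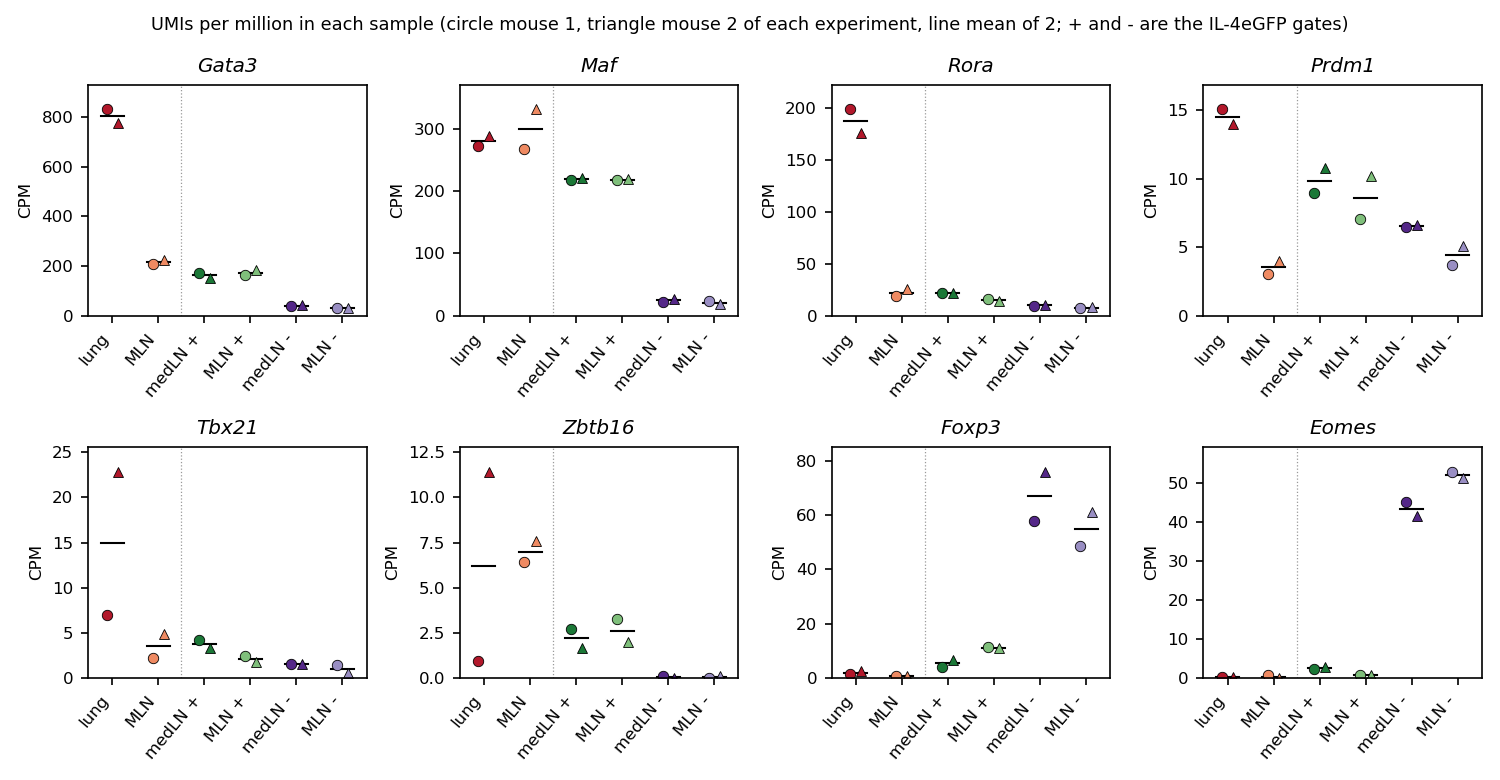
Level of each of the 8 genes in each of the 12 samples, in CPM on a linear axis of its own from 0, with a circle for mouse 1, a triangle for mouse 2 and a line for their mean; the groups are the lung and MLN samples of the first experiment and the IL-4eGFP+ and IL-4eGFP- medLN and MLN samples of the second. *Gata3* and *Rora* stand highest in the lung, *Maf* drops from 217 CPM or more to 27.7 or less in IL-4eGFP- cells, and *Foxp3* and *Eomes* are highest in the IL-4eGFP- samples.

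*Zbtb16* and *Tbx21* were far more frequent in cells with the TCR of invariant NKT cells than in other cells. Among the 4714 lung and MLN cells used, 76 carried the TRAV11-TRAJ18 alpha chain of invariant NKT cells, 3 and 8 in the lung samples and 45 and 20 in the MLN samples, and 1 carried the TRAV1-TRAJ33 chain of MAIT cells. *Zbtb16* was found in 51 of the 76 (67.1%, exact Clopper-Pearson 95% interval 55.4% to 77.5%) and in 18 of the 4637 cells with another paired TCR (0.388%, 0.230% to 0.613%). In lung it was in 10 of 11 such cells and in 0 of 1487 others, whose interval reached 0.248%. When barcodes with no full TCR were counted too, the 76 cells held 65.0% of all *Zbtb16* UMIs of the first experiment, 83.3% in lung and 59.8% in MLN.

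*Tbx21* was in 29 of the 76 cells (38.2%, 27.2% to 50.02%). With barcodes with no full TCR counted too, these cells held 38 of its 76 UMIs in MLN and 13.2% of those in lung. The barcodes with no full TCR, which are not among the cells used, held 22 of the UMIs in MLN and 14.6% of those in lung. Among cells with another paired TCR it was in 65 of 1487 in lung (4.37%, 3.39% to 5.54%) and in 10 of 3150 in MLN (0.317%, 0.152% to 0.583%). In those cells its level was 6.83 and 16.7 CPM in lung and 0.842 and 0.912 CPM in MLN. The difference between organs was thus larger when the invariant cells were left out, at 3.73 on the log2 scale (edgeR adjusted p = 6.6e-04). Within each organ, *Gata3* was in 7 of 11 of these cells in lung (63.6%) against 91.9% of cells with another paired TCR, and in 20 of 65 in MLN (30.8%) against 51.3%. *Rora* was in 8 of 11 in lung (72.7%, 39.0% to 94.0%) against 52.5%, which lay within that interval, and in 31 of 65 in MLN (47.7%) against 7.46%. *Foxp3* was in 0 of 76 and *Prdm1* in 1 of 76. These cells came from 4 samples and were pooled, and the intervals cover counting error only.

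**Figure D2:**
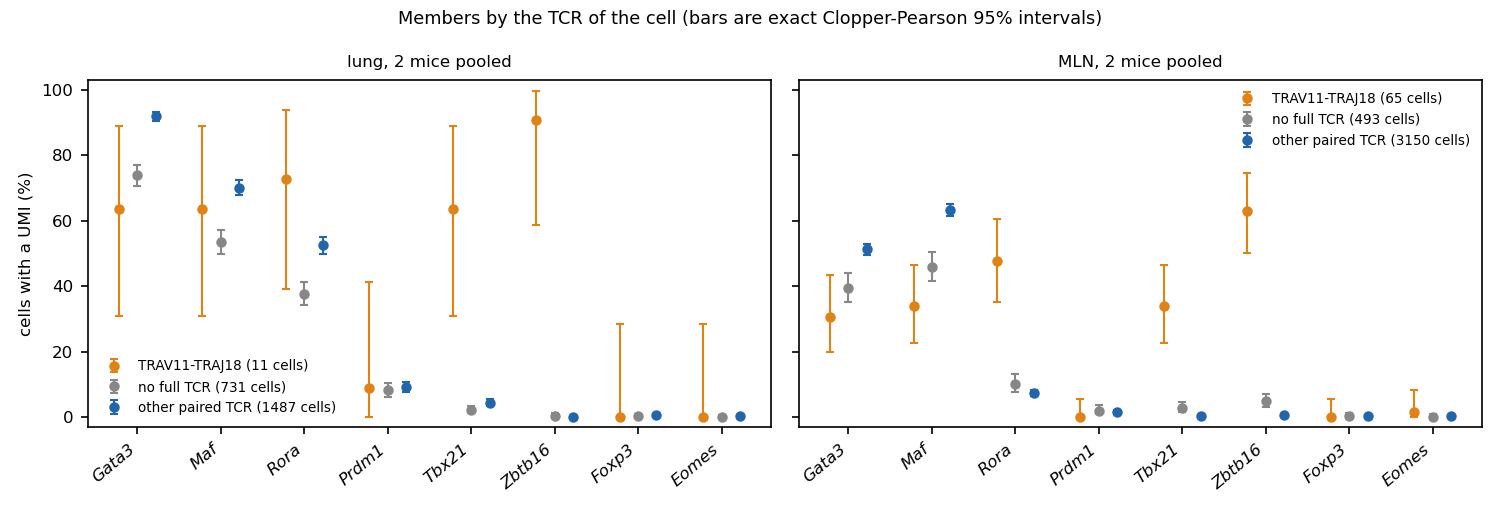
Percent of cells with a UMI of each gene, by TCR class (TRAV11-TRAJ18, no full TCR, another paired TCR), for lung and for MLN, each pooled over 2 mice; bars are exact 95% intervals, which cover counting error only. *Zbtb16* is in 67.1% of the 76 cells with TRAV11-TRAJ18 and in 0.388% of the cells with another paired TCR.

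In cells of expanded clones (2 or more cells with the same paired TCR), *Rora* was found in 59.3% and 51.1% of those of lung and 10.4% and 12.2% of those of MLN, against 52.1%, 46.0%, 6.81% and 9.30% of cells seen with their TCR alone. The expanded cells had the higher share in all 4 samples, with median UMIs of 6880 against 6945.5 in lung 1, 5582.5 against 5910 in lung 2, 4905 against 5017.5 in MLN 1 and 4912.5 against 4979.5 in MLN 2. Cells of 1 clone share their origin, and the difference was not tested. For *Gata3* the shares were 94.1%, 94.3%, 51.9% and 56.1% against 89.6%, 92.4%, 49.1% and 53.4%. *Zbtb16* was in none of the expanded cells of any sample (408, 88, 730 and 98 cells).

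Genes of the lineages these factors belong to also differed between lung and MLN. Of 14 tested genes of the Th2 program, 11 were higher and 1 lower in lung, with a median log2 fold change of 2.55 against -0.01 over all genes. Among them, *Ccr8*, a chemokine receptor of tissue Th2 cells, was at 162 ± 24.9 against 3.04 ± 1.08 CPM (log2 fold change 6.05), *Il1rl1*, the IL-33 receptor, at 356 ± 139 against 12.9 ± 3.28 CPM (5.03) and *Cysltr1*, a leukotriene receptor, at 114 ± 21.3 against 26.1 ± 0.411 CPM (2.30). Of 13 genes of the Th1 program, 7 were higher and none lower, such as *Fasl* (2.59), *Ccl4* (7.27) and *Nkg7* (1.85). *Ccl4* was listed with 0 UMIs in MLN 1, so its fold depends on the prior count.

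All 15 tested genes of the Treg program passed the threshold while *Foxp3* itself was too rare to be tested, 11 higher and 4 lower. *Ctla4*, an inhibitory receptor, was at 446 ± 6.00 against 85.1 ± 17.1 CPM, and *Nrp1*, a semaphorin receptor, at 107 ± 10.3 against 17.5 ± 2.17 CPM, while *Izumo1r*, a folate receptor family gene of Treg and follicular helper T cells, fell by 3.02 on the log2 scale in lung. The follicular helper (Tfh) program went the other way, with 12 of 14 genes lower, among them *Cxcr5*, which guides cells to B cell follicles (-4.58), and the nuclear factor gene *Tox2* (-2.91). Of 26 other lineage factors, 11 were higher, such as *Bhlhe40* (360 ± 62.8 against 18.7 ± 1.07 CPM) and *Irf4* (70.8 ± 7.20 against 20.7 ± 3.21 CPM), and 7 lower, such as *Tcf7* (146 ± 20.0 against 586 ± 0.516 CPM). Genes linked to Blimp-1 and c-Maf were split, with 5 of 11 higher (*Ccr2* 3.90, *Lgals3* 3.85) and 3 lower (*Cd160* -3.93). Of 9 innate-like and 9 naive genes tested, 3 and 4 were higher and 2 and 2 lower, and of 2 tested Th17 genes *Ltb4r1* was higher (4.18). Each named value passed the threshold in edgeR, with adjusted p of at most 0.00109.

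Between the sort gates of the second experiment, 6 of the 8 genes were higher in IL-4eGFP+ and 2 in IL-4eGFP- cells. The 4 samples of each gate came from the same 2 mice, and the fit had a term for organ but none for mouse. With each node of each mouse as a block, again 6 were higher and 2 lower. The gates differed in 62.8% of 11279 genes (31.3% higher and 31.5% lower in IL-4eGFP+ cells), so passing the threshold was common, and the samples of the gates did not overlap for 58.0% of genes and for all 8 of these. *Maf* was at 217, 221, 218 and 219 CPM in the IL-4eGFP+ samples medLN 1, medLN 2, MLN 1 and MLN 2, and at 22.2, 27.7, 23.8 and 18.3 CPM in the IL-4eGFP- samples. The IL-4eGFP+ samples were nearly equal and all far above the others, by 9.51 times in the mean, at a log2 fold change of 3.05 ± 0.0743 (SE, edgeR adjusted p = 8.6e-11). It was found in 46.9% to 50.4% against 3.65% to 6.07% of cells.

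*Gata3* was at 173, 153, 163 and 183 CPM in the IL-4eGFP+ samples and at 39.4, 42.1, 30.5 and 31.8 CPM in the IL-4eGFP- samples, in the same order. The groups did not overlap, and the log2 difference was 2.03 ± 0.0881 (SE, edgeR adjusted p = 2.1e-09). *Gata3* was found in 32.3% to 38.3% against 9.16% to 12.6% of cells, so the IL-4eGFP- cells were not free of it. In order of level, *Gata3* was highest in lung, followed by the MLN of the first experiment, the IL-4eGFP+ MLN and medLN samples, which overlapped, and the IL-4eGFP- medLN and MLN samples. The step between the experiments was not tested, since no mice were shared. *Maf* overlapped between the lung and MLN samples of the first experiment, which stood above the IL-4eGFP+ node samples and these above the IL-4eGFP- ones. *Rora* was highest in lung, its MLN (18.9 and 25.7 CPM) and IL-4eGFP+ medLN samples (21.9 and 22.3 CPM) overlapped, and the IL-4eGFP+ MLN, IL-4eGFP- medLN and IL-4eGFP- MLN samples followed.

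*Rora* was at 21.9, 22.3, 16.4 and 13.9 CPM in IL-4eGFP+ and at 9.44, 10.7, 7.56 and 8.12 CPM in IL-4eGFP- samples. The gates did not overlap (log2 fold change 0.85 ± 0.0972, edgeR adjusted p = 9.6e-06). *Prdm1* was at 8.94, 10.7, 7.06 and 10.2 against 6.47, 6.63, 3.72 and 5.07 CPM, which came close at their nearest values, at a log2 fold change of 0.57 ± 0.165 (SE, edgeR adjusted p = 0.00913). The *Prdm1* call was lost when cells were thinned to 1000 UMIs (0.52, edgeR adjusted p = 0.155) and in medLN alone (0.42, edgeR adjusted p = 0.0748). Without cells that had a *Foxp3* UMI, the differences were larger, at a log2 fold change of 1.41 for *Prdm1* and 1.33 for *Rora*.

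*Tbx21* and *Zbtb16* were scarce in both gates. *Tbx21* gave 40, 32, 22 and 19 UMIs in IL-4eGFP+ and 12, 12, 12 and 4 UMIs in IL-4eGFP- samples (log2 fold change 0.98 ± 0.286, edgeR adjusted p = 0.0101). It did not pass in MLN alone (0.83, edgeR adjusted p = 0.186). *Zbtb16* gave 26, 16, 30 and 21 UMIs against 1, 0, 0 and 1, and the 93 and 2 UMIs correspond to a ratio of levels of 37.4 (exact 95% interval 10.1 to 313, counting error only). It passed the threshold with edgeR adjusted p = 2.0e-05.

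The genes with the opposite pattern were *Foxp3* and *Eomes*. *Foxp3* was at 57.7, 76.1, 48.7 and 61.0 CPM in IL-4eGFP- and at 4.21, 6.63, 11.4 and 10.999 CPM in IL-4eGFP+ samples, in the order medLN 1, medLN 2, MLN 1 and MLN 2. Every IL-4eGFP- sample was above every IL-4eGFP+ sample, by 7.32 times in the mean (log2 fold change -3.07 ± 0.218, edgeR adjusted p = 1.4e-07). *Foxp3* was found in 8.40% to 12.3% of IL-4eGFP- and 1.02% to 3.24% of IL-4eGFP+ cells.

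*Eomes* was at 45.1, 41.5, 53.0 and 51.2 CPM in IL-4eGFP- samples and at 2.31, 2.74, 0.760 and 0.846 CPM in IL-4eGFP+ samples, which rested on 22, 26, 7 and 9 UMIs. The mean was 28.7 times higher in IL-4eGFP- cells (log2 fold change -5.04 ± 0.223, edgeR adjusted p = 2.5e-09), and it was found in 10.8% to 12.4% of them and in 0.299% to 0.437% of IL-4eGFP+ cells. A positive cell held 1.32 to 1.59 UMIs in the IL-4eGFP- samples and between 1 and 3.71 in the IL-4eGFP+ samples, so the gates overlapped in UMIs per positive cell but not in the share of positive cells. Cells with a *Cd8a* or *Cd8b1* UMI held 26, 22, 15 and 14 of the *Eomes* UMIs in the IL-4eGFP- samples, and the other cells held 323, 291, 413 and 390. Those with a *Cd8a* or *Cd8b1* UMI made up 7.61%, 6.84%, 6.45% and 5.35% of the cells of these samples. The NK and ILC1 markers other than *Eomes* summed to 13.6 to 17.6 CPM in IL-4eGFP- and 2.94 to 10.9 CPM in IL-4eGFP+ samples, with *Klra8* at 0 in 8 of 8 samples. The markers did not move together: *Klrb1c* was at 0.259 to 0.743 CPM in IL-4eGFP- and at 2.94 to 10.2 CPM in IL-4eGFP+ samples, opposite to the sum. The sum thus does not give the level of NK cells or ILC1, and their part in the *Eomes* difference was not tested.

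Cells with an *Eomes* UMI in the IL-4eGFP- gate carried genes of naive T cells. At 1000 UMIs and over the 4 samples, *Lef1* was found in 40.2% to 49.1% of them against 37.2% to 40.6% of the other cells, *Tcf7* in 40.1% to 47.7% against 36.3% to 38.6%, and *Igfbp4* in 34.2% to 45.1% against 28.3% to 33.5%. *Il2ra*, the high-affinity IL-2 receptor chain, was in 0.442% to 1.49% against 6.86% to 8.14%, and *Cd44*, a marker of antigen experience, in 0.372% to 1.14% against 1.85% to 3.29%. Of 132 listed genes, 9 were higher and 42 lower in the *Eomes*-positive cells of all 4 samples. The share over all genes was not computed, and a rare gene counts as lower wherever no positive cell holds it. For *Tbx21*, with only 4 to 9 positive cells in each sample of this gate, 8 were higher and 30 lower. The 42 thus cannot be read as a loss of programs. The *Eomes*-positive cells were somewhat deeper before thinning, with median UMIs of 3586 to 3934 against 3217.5 to 3308.

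The programs of the lineages split between the gates. Of 14 Th2 genes tested, 12 were higher and 1 lower in IL-4eGFP+ cells (median log2 fold change 3.93 against -0.02 over all genes). *Il4*, on whose reporter the gates were sorted, was among the 12 and counts in the median. The lower one was *Il4ra*, the IL-4 receptor (33.3 ± 2.17 against 172 ± 15.96 CPM). The chemokine receptor gene *Ccr4* was higher (78.4 ± 17.1 against 11.6 ± 1.86 CPM). All 11 genes linked to Blimp-1 and c-Maf were higher, such as *Pdcd1*, which encodes PD-1 (100.2 ± 13.6 against 9.72 ± 2.11 CPM), the cytokine gene *Il21* (22.8 ± 2.16 against 0.819 ± 0.632 CPM) and *Ccr2* (46.8 ± 6.20 against 4.38 ± 3.02 CPM). Of 14 Tfh genes, 13 were higher, among them *Tox2* (4.32), *Sh2d1a* (1.505) and *Slamf6* (1.09) on the log2 scale.

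All 10 naive genes were lower in IL-4eGFP+ cells, such as *Dapl1* (2.73 ± 1.62 against 86.1 ± 8.36 CPM), the lymph node homing receptor *Ccr7* (72.5 ± 20.4 against 339 ± 9.55 CPM) and *Lef1* (182 ± 18.7 against 514 ± 39.2 CPM). Treg genes were split, with 8 of 16 higher (*Tigit* 2.93, *Izumo1r* 1.27) and 7 lower (*Ikzf4* -2.08). Of 27 other lineage factors, 11 were higher (*Ahr* 2.30) and 12 lower (*Bach2* -2.87). Of 10 Th1 genes, 3 were higher (*Il12rb1* 2.34, *Nkg7* 1.59) and 3 lower (*Txk* -2.56), of 11 innate-like genes 6 were higher (*Cxcr6* 4.18, *Cd160* 2.44, *Il2rb* 0.43) and 1 lower, and of 3 Th17 genes 2 were higher (*Ltb4r1* 5.72) and 1 lower. Each named value passed in edgeR, with adjusted p of at most 2.3e-04.

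Between medLN and MLN no member passed the threshold in either gate. In IL-4eGFP+ cells, where 144 of 11263 genes (1.28%) passed, *Foxp3* (4.21 and 6.63 CPM in medLN, 11.4 and 10.999 CPM in MLN) had a log2 fold change of -1.06 ± 0.218 (SE, edgeR adjusted p = 0.0712). *Rora* (21.9 and 22.3 against 16.4 and 13.9 CPM) was at 0.54 ± 0.113 (SE, edgeR adjusted p = 0.0769) and *Eomes* at 1.62 ± 0.366 (SE, edgeR adjusted p = 0.0944). Each of these had groups that did not overlap, as had 43.1% of all genes. Of the 8 genes, 4 had an unadjusted p under 0.05 (*Rora*, *Eomes*, *Foxp3* and *Tbx21*), as had 1392 of all genes tested (12.4%), and DESeq2 called 0. Without MLN 1 *Rora* passed (0.65, edgeR adjusted p = 0.0391), with the lone MLN sample assumed to vary like the medLN samples. *Maf* and *Gata3* were at -0.01 and -0.10, with standard errors of 0.0531 and 0.0856.

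In IL-4eGFP- cells, where 19 of 10684 genes (0.178%) passed and 65 with mouse as a replicate block, 7 of the 8 genes were tested and 2 had an unadjusted p under 0.05, as had 666 of all genes tested (6.23%). These were *Gata3* at 0.33 ± 0.0893 (SE, edgeR adjusted p = 0.391) and *Eomes* at -0.32 ± 0.0830 (SE, edgeR adjusted p = 0.359). DESeq2 called 0 of the 7. *Foxp3* was at 0.23 ± 0.134 (SE, edgeR adjusted p = 0.931), and passed without medLN 1 (0.42, edgeR adjusted p = 0.00450) or MLN 2 (0.42, edgeR adjusted p = 0.00879). *Eomes* passed without medLN 1 (-0.39, edgeR adjusted p = 0.0390). In each of these fits the lone sample of a node is assumed to vary like the samples of the other node. Among the Treg genes, 5 of 16 were higher in medLN, including *Tnfrsf4* (148 ± 25.4 against 70.5 ± 4.23 CPM), *Nrp1* (23.5 ± 1.44 against 8.88 ± 2.16 CPM), *Tigit* (27.9 ± 4.83 against 11.4 ± 2.94 CPM) and the Helios gene *Ikzf2* (101 ± 10.9 against 63.9 ± 4.07 CPM), with edgeR adjusted p of at most 0.0155. In IL-4eGFP+ cells 1 of 16 was higher (*Nrp1* 2.29) and 3 were lower (*Tigit* -0.41, *Ebi3* -0.83).

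The other lists moved little between the nodes in IL-4eGFP+ cells. Of 14 Th2 genes, *Pparg* (1.18) and *Ccr4* (0.51) were higher in medLN and *Hpgds* (-1.002) lower, of 27 other lineage factors *Irf4* (0.81) was among 2 higher genes and *Nfil3* (-0.78) was lower, and of 11 Th1 genes *Nkg7* (-1.55) and *Il12rb1* (-0.56) were lower. The innate-like list had 5 of 10 genes lower in medLN, with *Cxcr6* at 78.6 ± 2.98 against 107 ± 6.40 CPM, and the naive list 4 of 10 higher, with *Ccr7* at 90.1 ± 1.48 against 54.8 ± 0.676 CPM. Of 14 Tfh genes 2 were higher (*Icos* 0.29, *Angptl2* 0.97) and *Tox2* lower (-0.53), of 11 genes linked to Blimp-1 and c-Maf 2 were lower (*Cd160* -1.32), and of 2 Th17 genes *Ltb4r1* was higher (1.14), all with edgeR adjusted p of at most 0.0478. In IL-4eGFP- cells, outside the Treg list, *Ikzf2* was the 1 other lineage factor, *Ly6c2* the 1 innate-like gene and *Tigit* the 1 gene linked to Blimp-1 and c-Maf that passed, all higher in medLN, and no gene of the Th2, Th1, Th17, Tfh and naive lists passed.

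The difference between nodes was compared between the gates in an interaction term, which called 18 of 11535 genes (0.156%), or 81 with each node of each mouse as a block. *Eomes* was the 1 member among them (1.95, standard error 0.262, edgeR adjusted p = 0.0248): it was higher in medLN in IL-4eGFP+ and higher in MLN in IL-4eGFP- samples. The call rested on 22, 26, 7 and 9 UMIs in IL-4eGFP+ samples, and 5, 16, 2 and 5 of these were in cells with a *Cd8a* or *Cd8b1* UMI. Such cells were 3.69%, 3.32%, 3.01% and 2.84% of the cells of these samples. In the remaining IL-4eGFP+ cells *Eomes* was at 1.91 and 1.11 CPM in medLN and 0.574 and 0.395 CPM in MLN. It was lost without any of the IL-4eGFP+ samples or without medLN 2 or MLN 2 of the IL-4eGFP- gate (edgeR adjusted p of 0.0560 to 0.0984), and with thinned cells (0.897). *Foxp3* had an interaction of -1.28 ± 0.286 (SE, edgeR adjusted p = 0.191) and passed with each node of each mouse as a block (edgeR adjusted p = 0.00844).

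**Figure D3:**
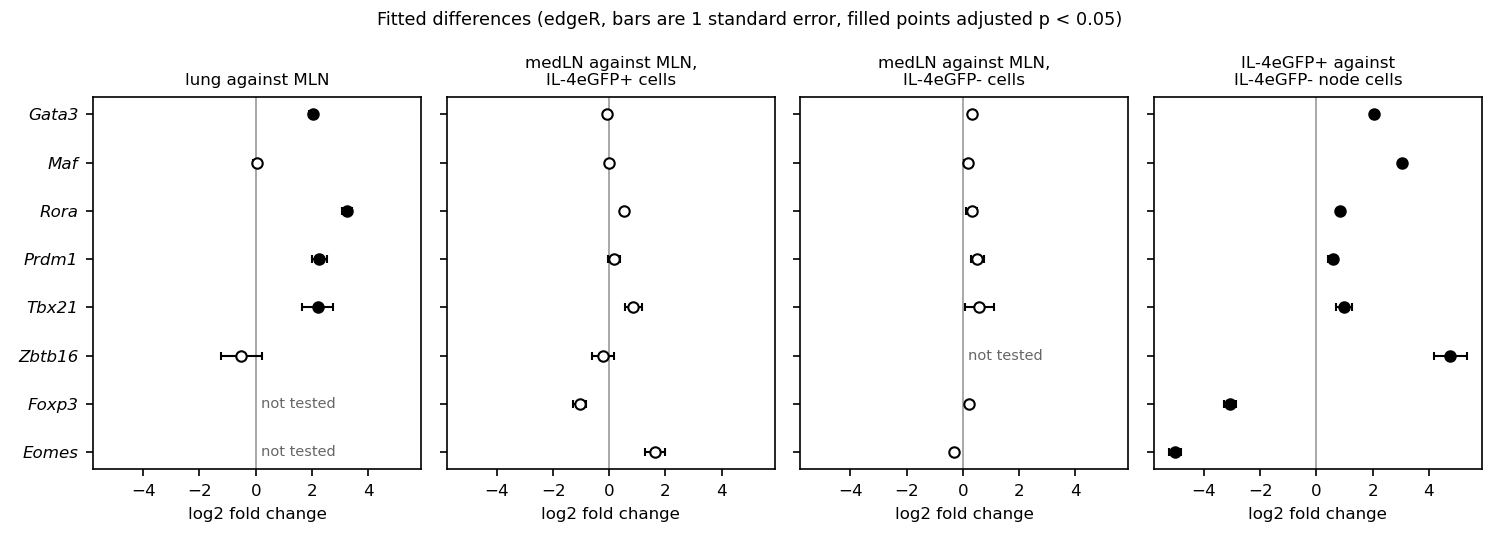
Log2 fold change of each gene from edgeR in lung against MLN, medLN against MLN in each gate and IL-4eGFP+ against IL-4eGFP- node cells, with bars of 1 standard error; genes too rare to be tested have no point. *Rora* reaches 3.26 and *Gata3* 2.03 in lung against MLN, *Eomes* -5.04 and *Foxp3* -3.07 in IL-4eGFP+ against IL-4eGFP- cells, and no gene passed the threshold between the nodes.

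Pairs of these factors were next counted in the same cells, at 1000 UMIs, and set against the number that chance pairing within each sample would give. In IL-4eGFP- cells *Foxp3* was found together with *Rora* in 26 cells where 4.63 were expected (5.61 times), with *Prdm1* in 12 where 2.29 were expected (5.24 times), with *Maf* in 39 where 8.95 were expected (4.36 times) and with *Gata3* in 37 where 15.99 were expected (2.31 times). Each of these pairs exceeded the expected number in 4 of 4 samples. *Foxp3* and *Eomes* were together in 2 cells where 17.9 were expected (0.11 times), below it in 4 of 4 samples, and *Gata3* and *Eomes* in 3 where 10.7 were expected. Over the 28 possible pairs, 6 exceeded the expected number in all 4 IL-4eGFP- samples, the other 2 being *Gata3* with *Maf* and *Rora* with *Maf*.

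Seen from *Maf* and *Rora*, the overlap was large. Of IL-4eGFP- cells with a *Maf* UMI at this depth, 20.5% to 33.3% also had a *Foxp3* UMI, against 4.19% to 5.96% of the cells without. Of those with *Rora*, 20.0% to 36.4% had *Foxp3*, against 4.37% to 6.03%. In IL-4eGFP+ node cells there were 257 against 207 cells for *Gata3* and *Maf* (1.24 times, above in 4 of 4 samples), 18 against 7.49 for *Gata3* and *Prdm1*, 22 against 11.3 for *Prdm1* and *Maf* and 21 against 11.2 for *Foxp3* and *Maf*.

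In lung, *Gata3* was found together with *Rora* in 133 cells where 130 were expected and with *Maf* in 220 where 201 were expected, so these counts were within 1.10 times of those expected. *Gata3* and *Tbx21* were together in 7 cells where 9.28 were expected, below it in both lung samples. In MLN, *Gata3* and *Rora* were together in 18 cells where 10.9 were expected and *Maf* and *Zbtb16* in 2 where 5.28 were expected. At 1000 UMIs, 24.4% and 26.4% of lung cells, 4.67% and 6.77% of MLN cells, 3.99% to 4.75% of IL-4eGFP+ and 1.20% to 1.73% of IL-4eGFP- node cells had 2 or more of the 8 factors. Doublets and free RNA can put both genes in 1 barcode. Their part was not tested in the node samples, where the doublet caller did not work. In the first experiment it marked 15 barcodes in lung 2 but 1 in lung 1, 0 in MLN 1 and 1 in MLN 2. Doublets may thus remain in lung and MLN too.

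**Figure D4:**
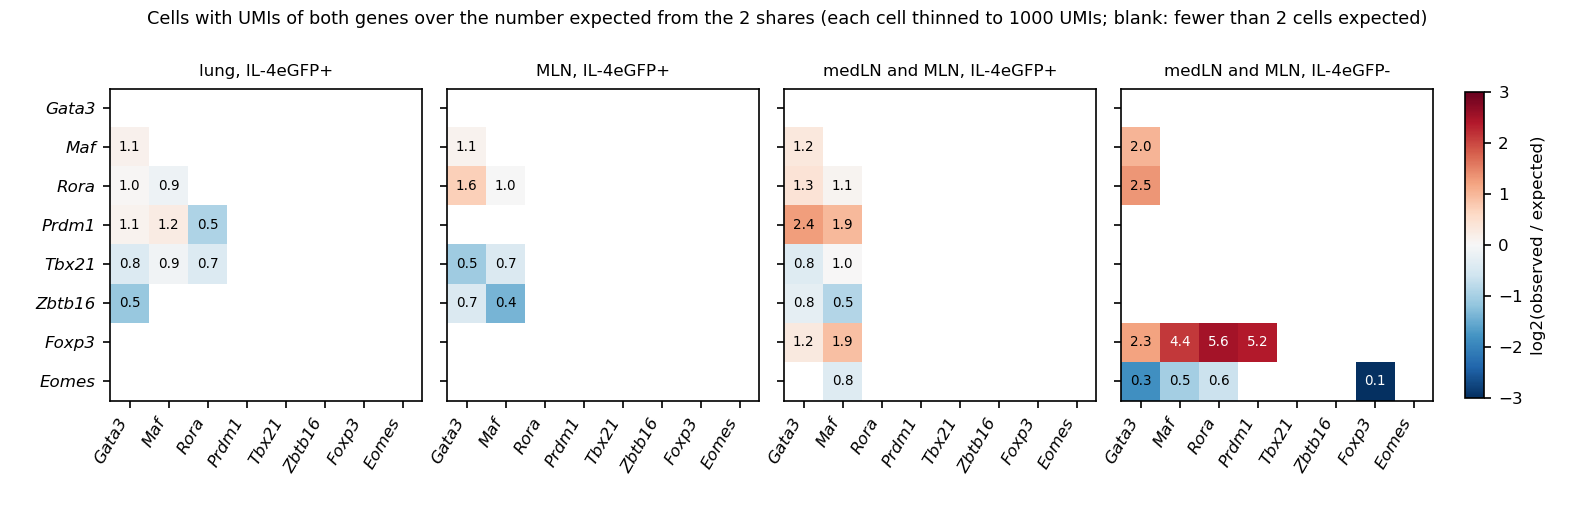
Number of cells with both genes of a pair divided by the number expected from the 2 single shares within each sample, for cells thinned to 1000 UMIs, in lung, MLN, IL-4eGFP+ node and IL-4eGFP- node cells; each panel is a matrix of the 8 genes, with colour on a log2 scale and pairs left blank where fewer than 2 cells were expected. In IL-4eGFP- cells *Foxp3* stands at 5.61 with *Rora*, 5.24 with *Prdm1* and 4.36 with *Maf* but at 0.11 with *Eomes*.

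The genes whose cell-to-cell pattern was most like that of each factor were found from Pearson correlations of log-scaled counts within each sample, averaged over samples, among genes in at least 1% of the cells of every sample with a positive value in each. All points of a sample share a library, but its cells differ in depth, and the part of depth in these correlations was not tested. For *Foxp3* these were *Ikzf2* (0.283), *Itgae* (0.265) and *Ctla4* (0.234), for *Tbx21* they were *Cxcr3* (0.277), *Ctsw* (0.244) and *Nkg7* (0.212), and for *Maf* they were *Ctla4* (0.283), *Lag3* (0.273) and *Tnfrsf4* (0.225), over 12 samples. For *Gata3* they were *Ahnak* (0.182), *Lgals1* (0.181) and *Id2* (0.169), for *Rora* they were *Il7r* (0.160), *Id2* (0.156) and *Fam129a* (0.138), and for *Prdm1* they were *Neb* (0.133), *Tnfrsf4* (0.133) and *Il2ra* (0.119), over 12 samples. For *Zbtb16* they were *Lmo4* (0.181), *Ckb* (0.164) and *Il7r* (0.164) over 10 samples. Of these, medLN 1 and MLN 2 of the IL-4eGFP- gate held 1 *Zbtb16*-positive cell each, and a gene needed a positive value there too. In the 4 lung and MLN samples its highest values were 0.404 for *Ccl5* and 0.345 for *Ctsw*. In the 4 IL-4eGFP+ node samples they were 0.285 for *Ctsw* and 0.217 for *Il7r*. For *Eomes*, which was sparse outside the IL-4eGFP- gate, no gene exceeded 0.039 over 11 samples. Within the gates, the highest values were 0.203 for *Cd8b1* and 0.114 for *Nkg7* in the 4 IL-4eGFP+ samples and 0.127 for *Myb* and 0.0972 for *Itm2a* in the 4 IL-4eGFP- samples.

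Shares of listed genes in cells with and without a factor were compared within each gate. Different genes are given for the gates, which were not compared gene by gene. *Lag3* and *Ctla4*, for example, correlated with *Maf* in both (0.247 and 0.230 in IL-4eGFP+, 0.333 and 0.375 in IL-4eGFP- node samples). Among IL-4eGFP+ node cells at 1000 UMIs, *Cysltr1* was in 5.84% to 7.31% of *Gata3*-positive and 0.448% to 1.24% of other cells and *Ccr2* in 5.92% to 8.49% against 1.40% to 1.92%, while *Tcf7*, a factor of naive and follicular helper T cells, was in 29.5% to 34.7% against 49.5% to 51.8%. *Maf*-positive cells of the same samples more often had *Il4* (16.1% to 17.0% against 9.53% to 11.3%) and *Lag3* (8.20% to 14.3% against 2.01% to 5.46%). Among IL-4eGFP- cells, *Maf*-positive cells more often had *Izumo1r* (50.8% to 56.4% against 13.2% to 13.7%) and *Icos* (25.4% to 44.6% against 5.37% to 6.96%). *Foxp3*-positive cells had *Il2ra* in 34.2% to 38.0% against 2.74% to 4.04% and *Ikzf2* in 30.0% to 34.9% against 2.33% to 4.16%, and *Tcf7* in only 10.6% to 16.4% against 40.1% to 42.1%. Of 132 listed genes, 48 were higher and 19 lower in the *Foxp3*-positive IL-4eGFP- cells of all 4 samples, and 51 and 15 in the *Maf*-positive ones. The share over all genes was not computed for these counts either. Cells were called positive before thinning, and *Gata3*-positive cells were deeper (3826.5 to 4914 against 2904 to 3308 median UMIs in the IL-4eGFP+ samples).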

How the data were processed

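UMI counts per gene and cell were made by the authors with Cell Ranger (2.1.1 and 3.0.1 for lung and MLN, 6.1.2 for medLN and MLN, mm10) and deposited as raw counts, 1 matrix for each of the 4 lung and MLN libraries and 1 for both node libraries, beside tables of TCR contigs. Cells with more than 500 UMIs, more than 500 genes, under 7% mitochondrial UMIs and a novelty (log10 genes over log10 UMIs) above 0.8 were kept, with an alpha and a beta chain required in lung and MLN. Node cells were assigned to samples from their hashtag counts with HTODemux of Seurat 5.3.0, and hashtag doublets and negatives were left out. Scrublet was run on the barcodes that passed the filters on UMIs, genes, mitochondrial share and novelty. It marked 17 of those of lung and MLN (0.286%) and 3 of those of the nodes (0.0155%), so it did not work on the nodes. Of the 17, 15 were in lung 2, with 1 in lung 1, 0 in MLN 1 and 1 in MLN 2, so Scrublet found almost none there. Its calls were used only in an alternative.

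Counts were summed per sample without TCR genes and tested with the quasi-likelihood test of edgeR 4.0.16 (filterByExpr, TMM, Benjamini-Hochberg threshold 0.05) in R 4.3.3. CPM are raw UMIs per 1000000 UMIs of a sample, with SD over samples. Fits used only the samples compared. Samples with the same number came from the same mouse, and deviations of same-numbered samples from their group means correlated at 0.0398 (lung and MLN), 0.235 (IL-4eGFP+ nodes), 0.117 (IL-4eGFP- nodes) and 0.149 and 0.156 (gates). The alternatives were a replicate block, DESeq2 1.42.0, no low-count filter, leaving out each sample, thinning and other cell sets. The block was the mouse in comparisons of organs, and each node of each mouse in fits that held both gates. Fits were tested on simulated data. Exact binomial 95% intervals cover counting error only.

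The 8 genes and all gene lists were chosen with earlier results of these data known. Beside the 8 genes, the text names up to 3 called genes with the smallest adjusted p for each list and comparison, with a mean of at least 10 CPM, and the 3 genes with the highest mean correlation with each factor. The shares of listed genes in cells with and without a factor, the gene *Ly6c2* and the marker genes were named after their values were seen. So were the genes most like *Eomes*, *Zbtb16* and *Maf* within a gate or experiment.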

Additional observations from a re-analysis of the deposited data

Results flagged for a closer look

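Among the 32 groups of 4 samples examined, *Tbx21* in the IL-4eGFP- nodes had 1 sample far from the others, MLN 2 at 0.507 CPM, which rested on 4 UMIs against 12 in each of the other samples. Chance gives such a gap in about 1 of 20 sets, and the sets by CPM and by share of cells are not independent. The difference of *Eomes* between medLN and MLN differed between the gates, with an interaction of 1.95 ± 0.262 (log2, SE, edgeR adjusted p = 0.0248).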

How the results depend on the processing

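Of 508 log2 fold changes of the 8 genes under the alternatives, 471 kept their direction and side of the threshold, 8 passed it newly, 11 no longer passed it and 18 turned direction, none of which passed the threshold in either fit. Between lung and MLN these were *Maf* (-0.11 without MLN 1) and *Zbtb16* (0.79 without lung 1, 0.032 with equal cells). Between the nodes in IL-4eGFP+ cells they were *Gata3* (0.017 thinned), *Prdm1* (-0.067 without MLN 1), *Maf* (0.0061 without MLN 2, 0.048 thinned, 0.019 without the deepest cells) and *Zbtb16* (0.075 without medLN 2, 0.14 without MLN 1), and in IL-4eGFP- cells *Prdm1* (-0.13) and *Eomes* (0.023), both thinned. In the interaction they were *Prdm1* (0.13 thinned), *Tbx21* (-0.67 without MLN 1 IL-4eGFP-) and *Zbtb16* (0.068 without medLN 2 IL-4eGFP+, 0.13 without MLN 1 IL-4eGFP+, 2.33 without medLN 1 IL-4eGFP-, 0.67 without MLN 1 IL-4eGFP-). The number of genes called between lung and MLN (3284) was 1833 with DESeq2, 1500 with cells thinned to 1000 UMIs, 2056 with equal cells per library and 1907 (without MLN 1) to 3678 (without lung 2) when 1 sample was left out. Between the nodes in IL-4eGFP+ cells it (144) was 47 with no filter, 67 thinned and 13 (without medLN 1), 49 (medLN 2), 110 (MLN 2) or 191 (MLN 1), with 0 to 1 of the 8 genes called. In IL-4eGFP- cells it (19) was 65 with the replicate block, 2 with no filter, 6 thinned, 10 without the deepest 5% of cells, an alternative chosen after seeing the data, and 98 (without medLN 2), 139 (MLN 2), 178 (MLN 1) or 194 (medLN 1), with 0 to 2 of the 8 genes called. Between the gates it (7086) was 3915 thinned, with 5 of the 6 genes then tested called. The interaction (18 genes) was 81 with the replicate block, 37 with DESeq2, 68 with no filter, 3 thinned, 11 without the deepest cells and 4 (without MLN 2 IL-4eGFP+) to 13 with 1 sample left out. It called 2 of the 8 genes with the block, DESeq2 or no filter, 0 thinned or without the deepest cells, and 0 to 1 with 1 sample left out. The block changed no other call of the 8 genes. Pairs above the expected number in all IL-4eGFP- samples were 6, or 10 unthinned. The cause of these changes was not tested. With 2 samples a group, p-values rest on the spread between 2 mice, moderated by the spread of all genes tested. The 4 samples of each gate also came from only 2 mice. *Zbtb16*, *Tbx21*, *Eomes* in IL-4eGFP+ cells and *Foxp3* in lung rest on few UMIs.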
